A study of Mus musculus with 36 samples.

Results

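The unmyelinated optic nerve (UON) of C57BL/6 mice was compared 3 D (days) after microbead injection with the UON of naïve mice, and genes of mitosis made up 41 of the 105 genes called higher in the injured nerve by DESeq2, while edgeR's quasi-likelihood test called none. The comparison takes its members from the sample labels: the 2 UON libraries of the 3 D glaucoma group and the 2 UON libraries of the naïve (0 D) group, out of 36 libraries of UON, myelinated optic nerve (MON) and retina. Top2a, the topoisomerase that untangles sister chromosomes, stood at 4.84 and 2.06 CPM in the naïve pools (CPM are counts scaled to one library size) and at 52.4 and 60.8 CPM in the 3 D pools, the female pool first and the male pool second here and below. Of 78 genes in 3 lists of mitosis genes, 73 were higher in both 3 D pools than in both naïve pools, against 17.0% of all 22438 genes tested. Gfap, the intermediate filament of astrocytes, did not separate the groups, with 11785 and 15058 CPM in naïve and 12639 and 11359 CPM at 3 D. Beside mitosis genes, DESeq2 called Fcrls, Timp1 and Serpina3n higher, and Cartpt and the clock gene Nr1d1 lower.

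The mice were 2 to 4 months old. In the glaucoma group, microbeads had been injected into the anterior chamber of 1 eye, where they hinder the outflow of aqueous humor and raise the intraocular pressure. By the study's measurements, mean pressure in the injected eyes of the 3 D mice was well above the other eyes 1 day after injection. At 3 D it differed little on average, with a wide spread. The naïve group had no injection in either eye. Each library was the pooled RNA of 2 mice of 1 sex, so each group held 1 female and 1 male pool, and the pool cannot be told apart from the sex. The model is bulk tissue: the UON was cut out by hand as the short stretch behind the globe, and its RNA came from all cells in it. In such samples fewer cells of a type and less RNA per cell cannot be told apart. For time and injury, the UON libraries at 2 W and 6 W (weeks) after microbeads and at 3 D after optic nerve crush were used, and for region the MON libraries of the naïve and 3 D glaucoma groups, each group again 1 female and 1 male pool of C57BL/6 mice.

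Axons of retinal ganglion cells leave the eye through the UON, the mouse counterpart of the optic nerve head, before oligodendrocytes wrap them further back. Here a dense mesh of astrocytes ensheathes the axon bundles, with microglia, vessels and some border cells between them, and this is the site where raised pressure is held to strain axons first. Cells that divide pass from DNA synthesis through G2 into mitosis, when cyclin B with Cdk1 drives entry, kinetochores on CENP-A chromatin attach chromosomes to the spindle, and mitotic kinesins and the centralspindlin complex carry out segregation and cytokinesis. Most of these genes share a late peak in the cycle, set by the MuvB complexes and Foxm1 at CHR elements of their promoters, which often hold CCAAT boxes too. In adult nerve, microglia and oligodendrocyte precursors are the glia known to divide most readily after injury. For the mouse model used here, the study cites proliferation of astrocytes as well as microglia. Which cells made the RNA of mitosis genes was not tested.

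The naïve UON libraries held 49.5 and 47.7 M counts and the 3 D libraries 19.5 and 51.5 M, so the 3 D female pool was the shallow one. The rank correlation of the 3 D female pool with the other 7 UON libraries of the glaucoma and naïve groups was 0.927 to 0.942. That of the 2 W male pool, with 16.2 M counts the shallowest UON library, was 0.927 to 0.938. Pairs without either pool lay between 0.945 and 0.96. Sex-linked genes matched the labelled sex in 4 of 4 libraries. Gfap at 3882 and 4751 FPKM and Mbp at 8991 and 6359 FPKM in the naïve pools show astrocytes and some myelin in the dissected UON, where FPKM is the level per length of transcript. Among 14 genes of ganglion cells and axons no member was called, and their median change was 0.23 (log2). The endothelin ligand Edn2 had 0 counts in all 4 libraries.

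Over all genes, edgeR's quasi-likelihood test with Benjamini-Hochberg adjustment called no gene in this comparison (limits: 0.05 for the adjusted p, 1 for the size of the log2 fold change), and the lowest adjusted p was 0.194, shared by Kif2c, Cenpa, Top2a and Lockd. At an unadjusted p under 0.05, 502 genes (2.24%) were higher and 366 (1.63%) lower, where 1122 in all would be expected if no gene differed. DESeq2, the tool of the study, with the same limits called 105 genes higher (0.513% of 20461) and 25 lower (0.122%). edgeR's likelihood ratio test called 66 higher and 15 lower, and its quasi-likelihood test without a filter on low counts 23 and 4, while limma voom called 0. Below, a gene is said to be called when DESeq2 called it, its log2 fold change ± SE is that of edgeR, and no such call passed edgeR's quasi-likelihood test. For counts of list members called against naïve at 3 D, the background is 0.513% of genes called higher and 0.122% lower.

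The DESeq2 calls depended on single libraries. Without the 3 D male pool DESeq2 called 329 genes higher and 382 lower, without the 3 D female pool 92 and 55, without the naïve female pool 67 and 6, and without the naïve male pool 42 and 11. In each of these fits the lone pool of a group is assumed to vary like the other groups. Of the 105 genes called higher, 21 were called in all 4 such fits: the mitosis genes Ccnb1, Cdc20, Cdk1, Cenpa, Cenpe, Ckap2, Foxm1, Kif20a, Kif22, Kif2c, Mki67, Plk1, Prc1, Top2a and Tpx2, and also Cdca3, Rrm2, Lockd, Fcrls, Timp1 and Neat1. Of the 25 called lower, 1 was called in all 4, the unnamed transcript 3222401L13Rik. Of the other called genes named here, Hmmr, Vgf, Gpr146, Krt5 and Nr1d1 were called in 3 of the 4, and Cxcl1, Dock2, Fcgr3, Fosl2, Gins2, Gpr176, Iqgap3, Kif23, Nuf2, Pimreg, Saa3, Serpina3n and Lingo1 in 2. Aurka, C3ar1, Cd68, Cdkn2c, Cdkn3, Gtse1, Mpeg1, Racgap1, Tk1, Cartpt, Ciart, Ecel1, Ndor1 and Tesc were called in 1, and Arhgef39, Aurkb, Incenp, Spc24, Uhrf1, Upk3bl and Wincr1 in 0. Serpina3n lost its call without either naïve pool, Nr1d1 without the naïve female pool, Fcgr3 without the 3 D female or the naïve male pool, and Cartpt and Cd68 when any pool but the 3 D male one was left out. None of the 4 fits called 27 of the higher and 7 of the lower genes. A further limit is that 9 genes called higher had no count in either naïve pool and 4 called lower had none in either 3 D pool. Of the called genes, 7 had no count in 1 of the 3 D pools, some of them called higher from counts in a single pool. These groups of genes overlap in part. All 4 counts were above 0 for 107 of the 130 called genes.

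Mitosis genes accounted for 41 of the 105 genes called higher. Their median log2 fold change over all 78 members was 3.13, where the median of all genes tested was 0.04. At an unadjusted p under 0.05 edgeR counted 60 of the 78, each of them higher, and 10 of the 20 genes with the lowest edgeR p were members. The lists were cyclins, kinases and checkpoint genes, with 13 of 28 members called, kinetochore and centromere genes, with 14 of 25, and spindle, kinesin and cytokinesis genes, with 14 of 25. Without 1 library at a time, DESeq2 called 21 members without the 3 D male pool, 33 without the 3 D female pool, 25 without the naïve female pool and 18 without the naïve male pool. By list these fits called 7 to 13 cyclin and kinase genes, 4 to 7 kinetochore genes and 7 to 13 spindle genes, against 13, 14 and 14 with all libraries.

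**Figure D1:**
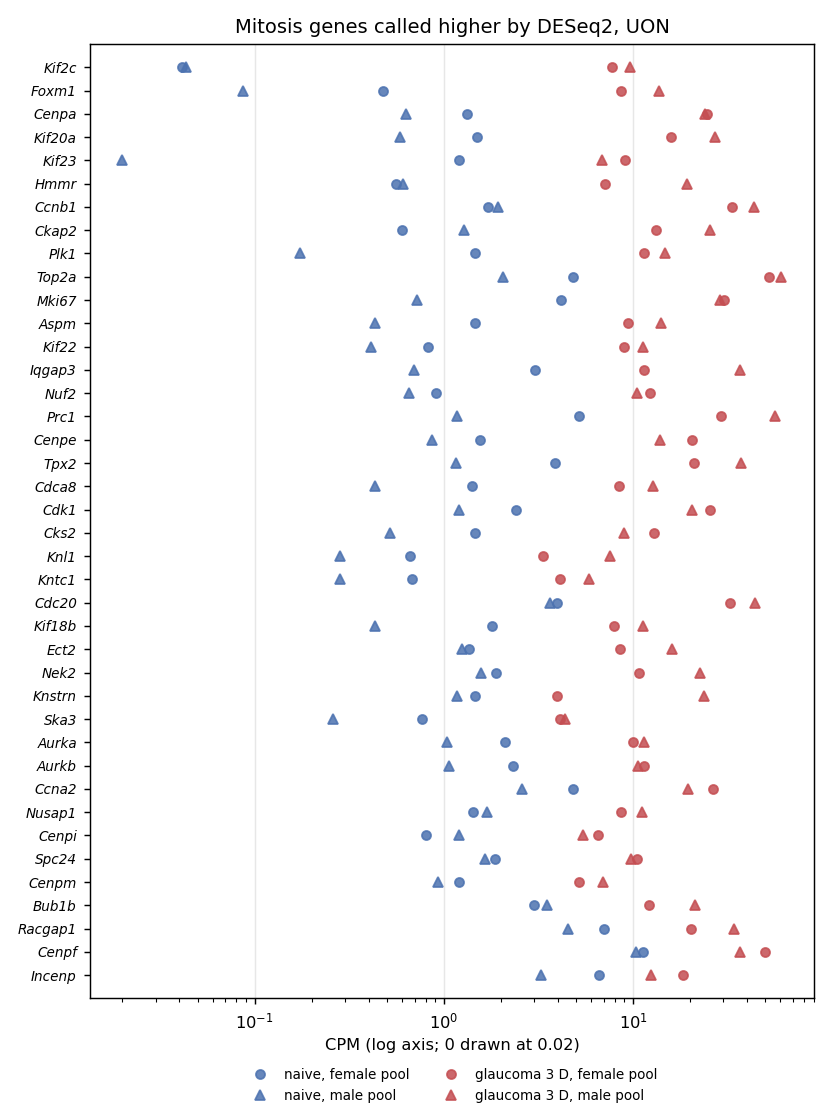
CPM (log axis) of the mitosis genes called by DESeq2, one row per gene, with 1 point for each naïve and each 3 D glaucoma UON pool, female and male marked apart. In each gene shown both 3 D points lie to the right of both naïve points, and 1 of the 41 called genes is not shown.

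Among the cyclins and kinases, Ccnb1, the cyclin that starts mitosis with Cdk1, stood at 1.71 and 1.93 CPM in naïve and 33.3 and 43.4 CPM at 3 D, a log2 fold change of 4.43 ± 0.81 (adjusted p = 1.74e-07, DESeq2; 0.701, edgeR). Its partner kinase Cdk1 stood at 2.41 and 1.2 CPM in naïve and 25.5 and 20.5 CPM at 3 D, with a log2 fold change of 3.75 ± 0.55 (adjusted p = 6.29e-09, DESeq2). In both genes each 3 D pool stood many times above each naïve pool. Top2a had a log2 fold change of 4.24 ± 0.48 (adjusted p = 6.63e-16, DESeq2; 0.194, edgeR). In the deposited gene table (GRCm38), Top2a lies at chromosome 11, 98992943 to 99024189, Ccnb1 at chromosome 13, 100778650 to 100786570, Cenpa at chromosome 5, 30666777 to 30674830 and Kif2c at chromosome 4, 117159639 to 117182639. Mki67, which coats mitotic chromosomes and is used to stain dividing cells, stood at 4.14 and 0.717 CPM in naïve and 30.2 and 28.8 CPM at 3 D. The naïve pools lay apart here, and the 3 D pools close together. Foxm1, the transcription factor of late cell cycle genes, had 0.474 and 0.0869 CPM in naïve and 8.67 and 13.7 CPM at 3 D, with a log2 fold change of 5.25 ± 1.16 (adjusted p = 1.83e-05, DESeq2). Plk1, a kinase of mitotic entry and spindle assembly, had 1.46 and 0.174 CPM against 11.4 and 14.7 CPM. Both had a naïve female pool above the naïve male pool, and both 3 D pools above either.

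Aurka and Aurkb, kinases of the centrosome and of the chromosomal passenger complex, were called with all libraries, but Aurka in 1 and Aurkb in 0 of the 4 fits without 1 of them. Aurka stood at 2.1 and 1.04 CPM in naïve and 9.93 and 11.4 CPM at 3 D and Aurkb at 2.31 and 1.07 CPM in naïve and 11.5 and 10.6 CPM at 3 D. Ccnb2, the second B-type cyclin, was not called (adjusted p = 0.0917, DESeq2), at 0.886 and 0.152 CPM in naïve and 12.6 and 26.5 CPM at 3 D, although the pools did not overlap. The exceptions of the list were Cdc25b, a phosphatase that activates Cdk1, at 26 and 23.1 CPM against 16.5 and 28.5 CPM, and Pttg1, the securin that guards sister chromatids, at 72.1 and 62.7 CPM against 53.7 and 46.4 CPM. Pttg1 was the single member of the 78 with both 3 D pools below both naïve pools (log2 fold change -0.42 ± 0.24; adjusted p = 1.0, DESeq2).

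At the kinetochore, Cenpa, the histone H3 variant that marks centromeres, stood at 1.32 and 0.63 CPM in naïve and 24.6 and 24 CPM at 3 D, a log2 fold change of 4.70 ± 0.50 (adjusted p = 1.11e-16, DESeq2; 0.194, edgeR). Cenpe, a kinetochore kinesin, stood at 1.54 and 0.869 CPM in naïve and 20.4 and 13.8 CPM at 3 D (log2 fold change 3.90 ± 0.71). Nuf2, a subunit of the NDC80 complex that binds microtubules, had 0.906 and 0.652 CPM against 12.4 and 10.5 CPM, a log2 fold change of 3.94 ± 1.07. The 3 D pools of these 3 genes lay close together and far from naïve. Incenp and Spc24, of the passenger and NDC80 complexes, were called by DESeq2 with all libraries and in none of the 4 fits without 1 of them. Of the 25 kinetochore members 24 were higher in both 3 D pools than in both naïve pools.

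Among spindle genes, Kif2c, a kinesin that takes microtubules apart at centromeres, stood at 0.0412 and 0.0435 CPM in naïve and 7.7 and 9.58 CPM at 3 D (adjusted p = 2.80e-12, DESeq2; 0.194, edgeR). Each naïve pool held 2 counts of it, so that both 3 D pools were far above, by a factor these libraries do not fix. Kif20a, a kinesin of the spindle midzone, had 1.5 and 0.587 CPM against 15.8 and 27.2 CPM, with a log2 fold change of 4.64 ± 0.77 (adjusted p = 1.18e-08, DESeq2). Kif23 and Racgap1 together form centralspindlin, which places the cleavage furrow. Kif23 stood at 1.19 and 0 CPM in naïve and 9.06 and 6.83 CPM at 3 D. Racgap1, which was already well measured in naïve UON, stood at 7.0 and 4.52 CPM against 20.1 and 34.2 CPM, a log2 fold change of 2.33 ± 0.48 (adjusted p = 8.91e-04, DESeq2).

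Hmmr, a spindle and hyaluronan receptor protein, was at 0.556 and 0.609 CPM in naïve and 7.07 and 19.3 CPM at 3 D, and Ckap2, a spindle protein also on the p53 target list, at 0.597 and 1.28 CPM in naïve and 13.3 and 25.3 CPM at 3 D. In both the 3 D male pool was the higher injured pool. Iqgap3, a scaffold protein of dividing cells, had the same order, at 3.05 and 0.696 CPM in naïve and 11.4 and 36.9 CPM at 3 D (log2 fold change 3.98 ± 1.13; adjusted p = 0.00146, DESeq2). Stmn1, a tubulin-binding protein that oligodendrocyte lineage cells and neurons also make, stood at 128 and 99.7 CPM in naïve and 283 and 88.4 CPM at 3 D, high in the 3 D female pool alone. Kif4 was flat, at 37.3 and 64.1 CPM against 36.7 and 62.5 CPM.

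Genes of the steps before mitosis differed less. Of 30 DNA replication genes DESeq2 called 4 higher and none lower, 19 were higher and 2 lower without overlap (17.0% and 17.2% of all genes), and the median log2 fold change was 0.34. Rrm2, the regulated subunit of ribonucleotide reductase, stood at 5.0 and 3.7 CPM in naïve and 26.6 and 37.7 CPM at 3 D, a log2 fold change of 2.94 ± 0.51 (adjusted p = 3.79e-06, DESeq2). Gins2, of the replicative helicase, had 3.36 and 2.26 CPM against 26.5 and 13.6 CPM, and Tk1, thymidine kinase, 2.51 and 2.33 CPM against 18.4 and 8.29 CPM. Uhrf1, which keeps DNA methylation through replication, was called with all libraries (5.81 and 3.15 CPM in naïve and 17.5 and 9.58 CPM at 3 D) and in none of the fits without 1 of them. Rrm2 alone of the 4 was called in all of those fits. The sliding clamp gene Pcna stood at 50.8 and 50.1 CPM in naïve and 67 and 48.9 CPM at 3 D, and the helicase gene Mcm2 at 14.3 and 14.6 CPM in naïve and 21.9 and 17.8 CPM at 3 D, neither called.

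Of 16 G1 cyclins and E2F factors none was called by DESeq2 or edgeR (3 passed an unadjusted edgeR p under 0.05), and the median log2 fold change was 0.22. Ccnd1, the D-type cyclin that brings cells into the cycle, was abundant and level, at 539.6 and 649 CPM in naïve and 577 and 653 CPM at 3 D (log2 fold change 0.06 ± 0.21). E2f1 stood at 3.54 and 2.13 CPM against 6.54 and 5.45 CPM and was not called.

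Of 9 tested cell cycle inhibitors and relatives, 4 were called higher (0.513% of all genes). Without overlap, 6 were higher and 1 lower (17.0% and 17.2% of all genes), and the median log2 fold change was 1.02. Lockd, a noncoding RNA next to Cdkn1b, stood at 0.762 and 1.5 CPM in naïve and 21 and 25.8 CPM at 3 D, a log2 fold change of 4.41 ± 0.49 (adjusted p = 1.19e-16, DESeq2; 0.194, edgeR). Cdkn3, a phosphatase that acts on Cdk1 and Cdk2, had 1.36 and 0.391 CPM against 7.8 and 6.26 CPM, and Gtse1, a G2 and S phase protein, 1.17 and 1.2 CPM against 6.15 and 9.7 CPM. Of these, Lockd, Cdkn3 and Gtse1 thus lay several fold above naïve in both sexes. Cdkn2c, an inhibitor of Cdk4 and Cdk6, stood at 5.31 and 7.24 CPM in naïve and 21.2 and 26 CPM at 3 D. Cdkn1a, the p53 target p21, had 40.8 and 49.8 CPM against 85.7 and 98.1 CPM, without overlap but not called (log2 fold change 1.02 ± 0.29; adjusted p = 0.23, DESeq2).

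Promoters of the 3 mitosis genes with the largest log2 fold change for which RefSeq (GRCm38.p6) held one, and of 1 replication and 1 phagocyte gene, were searched on both strands for the CHR element (TTTGAA) and the CCAAT box known at late cell cycle promoters, for E2F sites (TTTCCCGC, TTTGGCGC, TTTCGCGC or TTTGCCGC), for STAT sites (TTCNNNGAA) and for PU.1 sites (GAGGAAGT). They are shown because the mitosis genes were higher together. Each run has 170 bases before and 30 from the transcription start on, 5′ to 3′ along the gene, with matches in capitals. A CHR match on the other strand appears as TTCAAA, and a CCAAT box as ATTGG. Kif2c lies at chr4:117178743-117178942 (minus strand), Cenpa at chr5:30666716-30666915 (plus), Kif23 at chr9:61946770-61946969 (minus), Rrm2 at chr12:24708084-24708283 (plus) and Fcgr3 at chr1:171059374-171059573 (minus).
Kif2c: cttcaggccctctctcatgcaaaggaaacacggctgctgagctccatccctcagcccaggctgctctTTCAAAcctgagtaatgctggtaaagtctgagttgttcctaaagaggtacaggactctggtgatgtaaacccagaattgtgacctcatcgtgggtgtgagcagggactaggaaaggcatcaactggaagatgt
Cenpa: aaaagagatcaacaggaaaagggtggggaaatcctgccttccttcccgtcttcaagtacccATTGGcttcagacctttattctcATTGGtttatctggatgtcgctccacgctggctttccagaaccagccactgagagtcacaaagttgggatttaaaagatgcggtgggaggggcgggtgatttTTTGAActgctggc
Kif23: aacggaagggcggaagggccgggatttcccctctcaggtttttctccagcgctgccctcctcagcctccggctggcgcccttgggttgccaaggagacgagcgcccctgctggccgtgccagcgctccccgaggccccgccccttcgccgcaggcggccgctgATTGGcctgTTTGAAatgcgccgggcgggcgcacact
Rrm2: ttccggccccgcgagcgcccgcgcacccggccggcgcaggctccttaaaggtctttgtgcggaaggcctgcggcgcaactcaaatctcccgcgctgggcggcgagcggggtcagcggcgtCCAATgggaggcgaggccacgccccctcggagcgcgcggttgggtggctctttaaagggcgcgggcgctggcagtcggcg
Fcgr3: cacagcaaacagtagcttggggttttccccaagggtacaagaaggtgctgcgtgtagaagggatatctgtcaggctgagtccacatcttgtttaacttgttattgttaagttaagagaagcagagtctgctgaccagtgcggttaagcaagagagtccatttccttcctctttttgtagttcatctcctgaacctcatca

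Cenpa had CCAAT matches starting 109 and 86 bases before its start and a CHR match at position 17 after it, and Kif23 a CCAAT match 7 bases before and a CHR match at position 3. Kif2c had a CHR match 103 bases before, although its RefSeq start lay 3867 bases from the 5′ end in the deposited gene table. Rrm2 had a CCAAT match 50 bases before, and Fcgr3, whose start lay 5532 bases from the deposited 5′ end, held none of the letters searched. Over promoters of 300 bases (250 before and 50 after the start), 24 of the 33 called mitosis genes with an entry (of 41) held the CHR letters (72.7%), as did 43 of the 65 mitosis genes with an entry (of 78; 66.2%) and 13% of the 13984 promoters of tested genes. CCAAT stood in 78.8%, 70.8% and 38.2%, and both together in 60.6%, 53.8% and 5.33%. E2F letters were in 6.06% of the called mitosis promoters and 3.6% of all, STAT letters in 3.03% and 7.1%, and PU.1 letters in 3.03% and 2.96%. Matches of different motifs were counted apart and could share bases, and a match is not a measured site.

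The mitosis genes were next followed over time. Summed over the 78 members, naïve UON held 507 and 428 CPM, the 3 D pools 1437 and 1438 CPM, the 2 W pools 473 and 387 CPM, and the 6 W pools 468 and 532 CPM. The 3 D pools lay alone above all the others. Against naïve the median log2 fold change of the members was -0.01 at 2 W and 0.08 at 6 W, and DESeq2 called 1 and 0 members, where over all genes it called 0.159% higher and 0.124% lower at 2 W and 0.0565% and 0.0989% at 6 W. In the direct comparison of 3 D with 2 W, DESeq2 called 45 members higher and 0 lower, where over all genes it called 0.836% higher and 0.210% lower, with a median difference of 3.15. In that of 3 D with 6 W it called 38 higher and 0 lower, where over all genes it called 0.495% higher and 0.0818% lower, with a median difference of 3.34. These comparisons share the 3 D pools. edgeR called no gene in either. At an unadjusted p under 0.05 it counted 2.87% of genes higher and 1.91% lower at 3 D against 2 W, and 2.87% and 1.66% against 6 W.

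Cenpa stood at 2.39 and 2.58 CPM at 2 W and 1.2 and 0.787 CPM at 6 W, and Ccnb1 at 3.93 and 0.479 CPM at 2 W and 1.6 and 0.719 CPM at 6 W, all far under their 3 D levels. Lockd was at 3.8 and 4.97 CPM at 2 W and 0.85 and 0.674 CPM at 6 W. Gins2 differed from these, with 15.6 and 26.1 CPM at 2 W, as high as at 3 D, and 11.8 and 4.07 CPM at 6 W. Cdkn2c also stood above naïve in both 2 W pools, at 17.7 and 8.98 CPM.

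**Figure D2:**
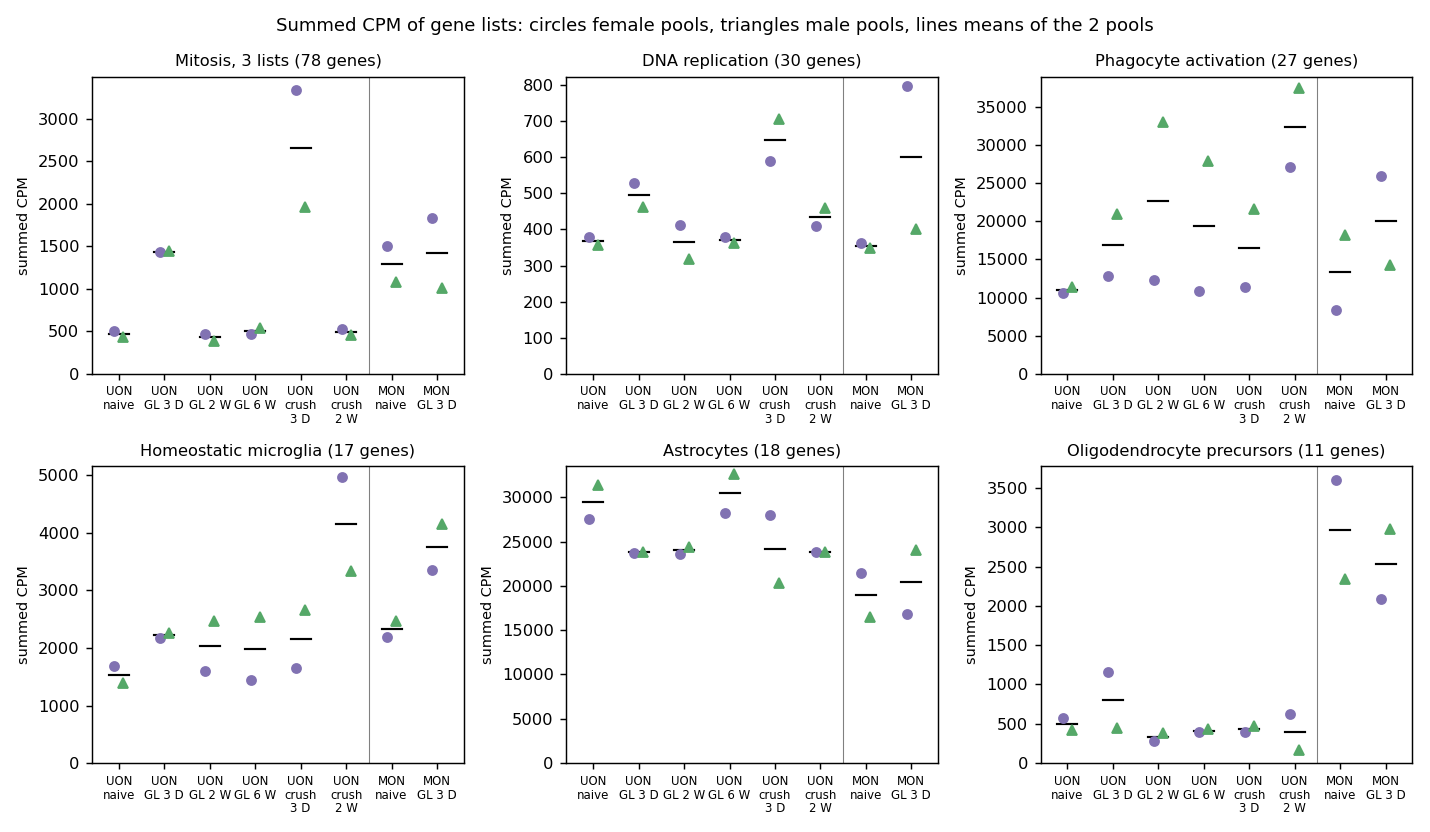
Summed CPM of the members of gene lists in each UON and MON library (one panel per list, female and male pools marked apart, groups along the x axis). The mitosis sum is 1437 and 1438 CPM in the 3 D glaucoma pools and 387 to 532 CPM in the naïve, 2 W and 6 W glaucoma pools.

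Crush of the optic nerve at 3 D, the other injury at the same time, gave a higher mitosis sum, at 3341 and 1959 CPM. Top2a stood at 196 and 58.1 CPM after crush and Ccnb1 at 147 and 62.9 CPM, so that the female crush pool was well above every glaucoma pool. Against the same naïve pools the median of the members was 4.15 and DESeq2 called 52 of them, where over all genes it called 0.832% higher and 0.120% lower. Set directly against crush, the glaucoma pools had a median difference of -0.93, and 55 of 78 members were higher after crush than in glaucoma in both sexes. DESeq2 called none of them in either direction, where it called 8 genes higher (0.0356%) and 4 lower (0.0178%) in all, and edgeR called no gene, with 0.497% higher and 0.568% lower at an unadjusted p under 0.05. The interval of Top2a is wide: its difference, glaucoma minus crush, was -0.92 with an SE of 0.538.

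In MON at 3 D of glaucoma, Top2a stood at 1.69 and 2.79 CPM in naïve MON and 52 and 5.82 CPM at 3 D, and Cenpa at 1.76 and 1.69 CPM in naïve MON and 22.2 and 2.42 CPM at 3 D. Ccnb1 stood at 2.52 and 1.53 CPM in naïve MON and 36.6 and 6.57 CPM at 3 D. In these 3 genes the 3 D female MON pool was far above the male one, which also lay above both naïve MON pools. The members' median in MON against naïve was 1.94, with 20 called by DESeq2, where over all genes it called 1.12% higher and 0.209% lower. The difference between the responses of UON and MON had a median of 1.08 over the members, and DESeq2 called none of them for it, where it called 36 genes (0.175%) higher and 35 (0.170%) lower in all. edgeR called no gene for the difference, with 2.24% higher and 2.76% lower at an unadjusted p under 0.05. The sum of the list is no guide in MON, since Stmn1 alone held 971 and 634 CPM in the naïve MON pools.

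**Figure D3:**
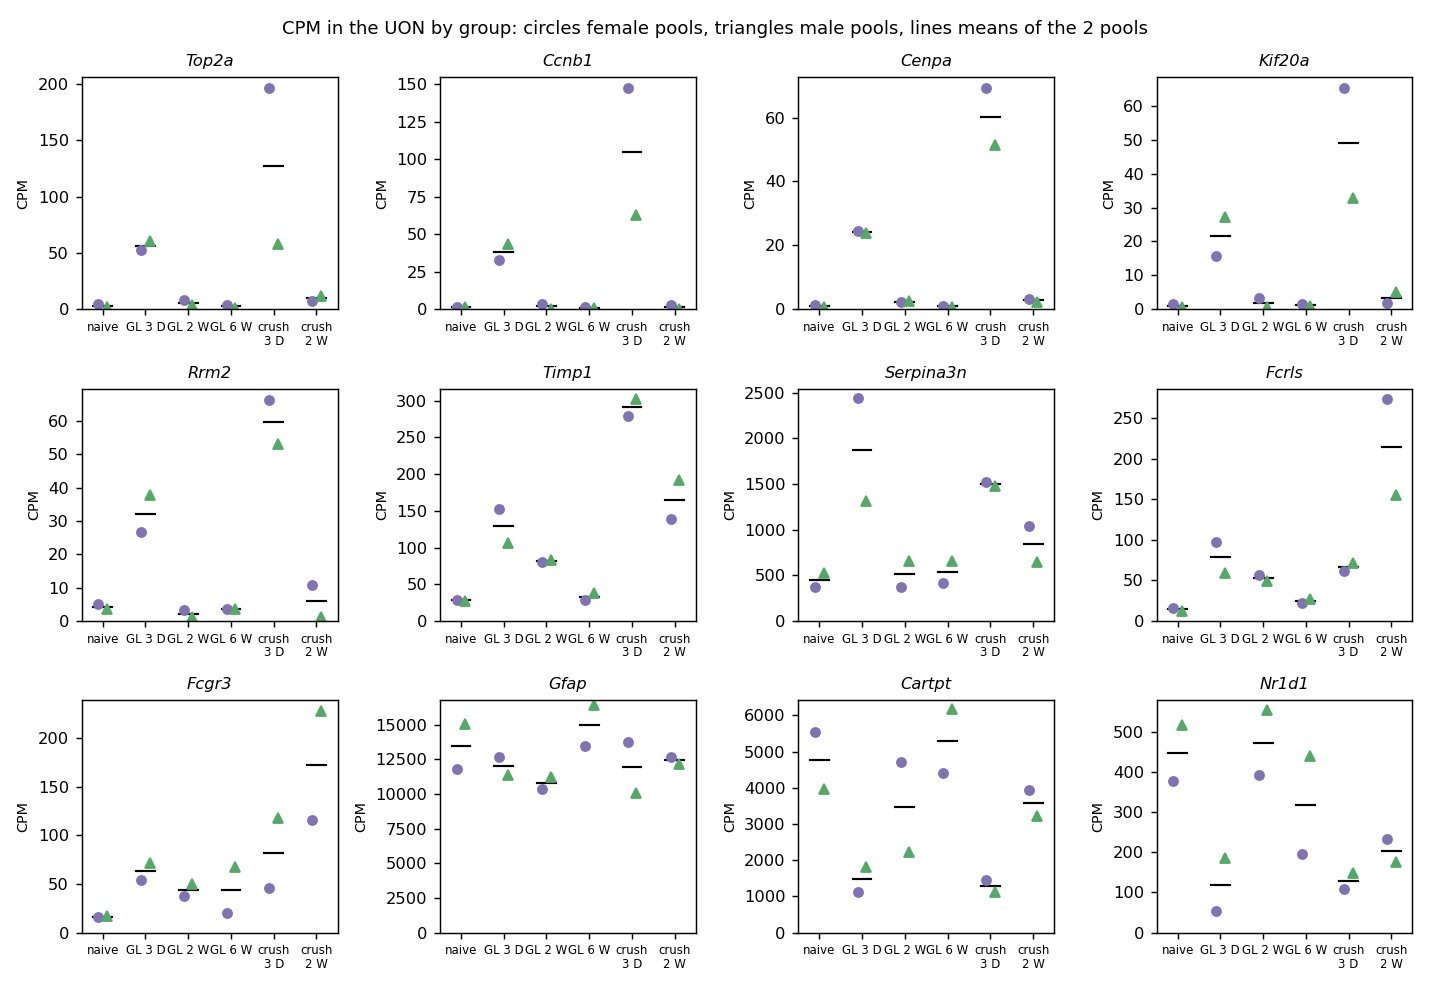
CPM (linear axis from 0, one panel per gene) of 12 genes in UON by group, from naïve through 3 D, 2 W and 6 W of glaucoma (GL) to 3 D and 2 W of crush, with 1 point per female and male pool and a line at their mean. Cenpa and Ccnb1 stand high in the 3 D glaucoma and 3 D crush pools and near the naïve level at 2 W and 6 W.

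Genes of microglia and phagocytes differed by less. Of 17 homeostatic microglia genes, 10 were higher in both 3 D pools than in both naïve pools and none lower (17.0% and 17.2% of all genes), with a median log2 fold change of 0.47 and 1 call. That call was Fcrls, an Fc receptor-like gene that marks resident microglia, at 16 and 12.5 CPM in naïve and 97.8 and 59.6 CPM at 3 D, a log2 fold change of 2.45 ± 0.31 (adjusted p = 2.16e-08, DESeq2; 0.248, edgeR). It stood at 56.5 and 49.4 CPM at 2 W, 21.8 and 27.6 CPM at 6 W and 62.1 and 72 CPM after crush, so above naïve in each of these pools. P2ry12, the purine receptor of surveying microglia, overlapped, at 20.2 and 11.8 CPM in naïve and 19.9 and 14.9 CPM at 3 D. Tmem119, another microglial surface gene, stood at 97.1 and 62.8 CPM against 108 and 114 CPM, and Csf1r, the receptor that keeps microglia alive, at 219 and 187 CPM in naïve and 248 and 384 CPM at 3 D, neither called. Trem2, the lipid receptor of activated microglia, had 24.6 and 20.6 CPM in naïve and 64.2 and 40.6 CPM at 3 D, and Aif1, the Iba1 gene, 12.6 and 13.3 CPM in naïve and 41.9 and 18.9 CPM at 3 D, without overlap but not called. Cx3cr1, the fractalkine receptor, was listed at 103 and 67.5 CPM in naïve and 8.82 and 96.4 CPM at 3 D, low in the 3 D female pool and in 1 pool at 6 W and 1 after crush.

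Of 27 phagocyte activation genes, 20 were higher in both 3 D pools without overlap and none lower (17.0% and 17.2% of all genes), with a median log2 fold change of 0.80 and 2 calls. Fcgr3, an activating Fc receptor, stood at 15.6 and 17.4 CPM in naïve and 54.3 and 72.1 CPM at 3 D, a log2 fold change of 1.91 ± 0.41 (adjusted p = 0.00443, DESeq2). Cd68, a lysosomal protein of phagocytes, had 33.3 and 24.8 CPM against 88.1 and 64.9 CPM, a log2 fold change of 1.40 ± 0.32 (adjusted p = 0.0312, DESeq2). Both stayed at a middle level at 2 W, Fcgr3 at 37.3 and 50.1 CPM and Cd68 at 56.8 and 57.2 CPM. Of this list DESeq2 called 7 members without the 3 D male pool, 1 without the 3 D female or the naïve female pool, and none without the naïve male pool. Not called were Tyrobp, the adaptor of Trem2, at 90.5 and 80.6 CPM in naïve and 183 and 133 CPM at 3 D, and Spp1, osteopontin, at 51.7 and 59.9 CPM in naïve and 127 and 106 CPM at 3 D. In both genes the pools did not overlap.

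Other genes of myeloid cells were among the calls. Dock2, a regulator of leukocyte movement, stood at 7.46 and 6.8 CPM in naïve and 23.8 and 27.9 CPM at 3 D (log2 fold change 1.85 ± 0.32; adjusted p = 1.15e-04, DESeq2), and Mpeg1, the macrophage perforin, at 15.8 and 18 CPM in naïve and 81.7 and 40.9 CPM at 3 D. C3ar1, the receptor of the C3a fragment, stood at 9.45 and 13.4 CPM in naïve and 27.8 and 32.3 CPM at 3 D. It was the 1 called gene of 16 complement genes, where DESeq2 called 0.513% of all genes higher. Of the 16, 9 were higher and none lower without overlap (17.0% and 17.2% of all genes). C1qa, of the first complement component, stood at 109 and 102 CPM in naïve and 187 and 146 CPM at 3 D and was not called. Cxcl1, a chemokine for neutrophils, was the 1 call of 19 chemokine genes, again beside 0.513% of all genes. Its level was low in these 4 pools, at 0 and 0.348 CPM in naïve and 2.91 and 3.99 CPM at 3 D. Saa3, an acute phase gene, had 0.844 and 0.109 CPM against 4.75 and 22.3 CPM, most of it in the male pool.

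Of 15 tested genes of monocytes and border macrophages none was called, with 5 higher and 4 lower without overlap (17.0% and 17.2% of all genes) and 2 higher and 1 lower at an unadjusted edgeR p under 0.05 (2.24% and 1.63% of all genes). Their summed level was 584 and 710.0 CPM in naïve and 844 and 1254 CPM at 3 D. Ccr2, the monocyte chemokine receptor, stood at 1.24 and 1.15 CPM in naïve and 4.7 and 5.13 CPM at 3 D, and Mrc1, of border macrophages, at 3.05 and 6.22 CPM in naïve and 4.75 and 8.35 CPM at 3 D. The 10 neutrophil genes, 6 of them tested and none called, summed to 18.8 and 11.8 CPM in naïve and 14.7 and 29.5 CPM at 3 D. Over the 6 tested the median log2 fold change was 7.34 (0.13 to 8.39), the highest median of any list. Of these, 3 were higher and none lower without overlap (17.0% and 17.2% of all genes), and 2 were higher at an unadjusted edgeR p under 0.05. S100a8 and S100a9, which neutrophils make in bulk, were at 0 CPM in both naïve pools and at 3 D at 0.436 and 1.78 CPM for S100a8 and 1.11 and 0.395 CPM for S100a9. The part of such cells in the phagocyte genes was not tested.

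**Figure D4:**
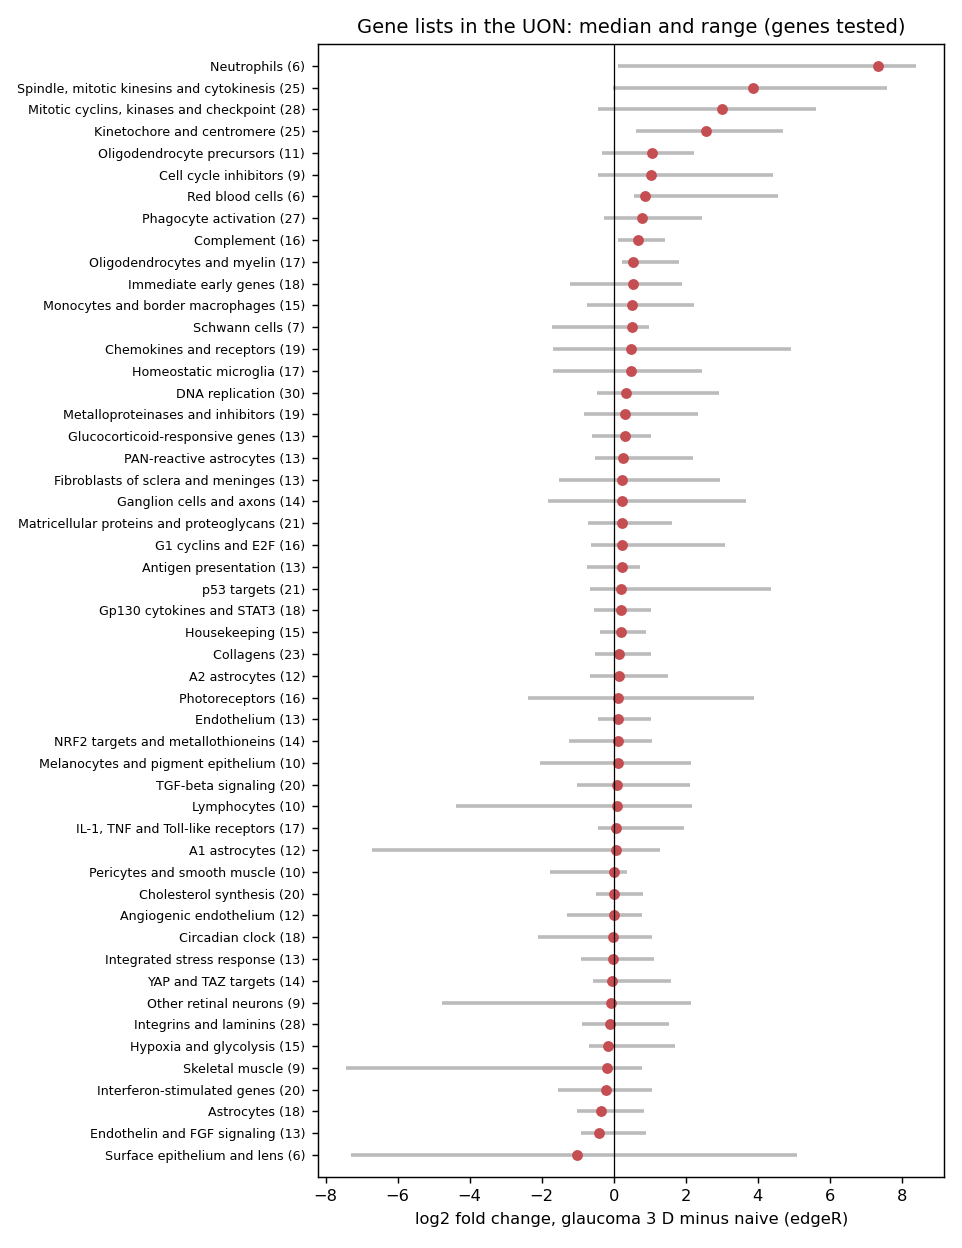
Median log2 fold change (3 D glaucoma over naïve, edgeR) of the members of each gene list, as points, with a line from the lowest to the highest member and the number of members tested beside each name. The highest median, 7.34, is that of the 6 neutrophil genes tested. The 3 mitosis lists have medians of 2.55, 3.02 and 3.88, and phagocyte activation one of 0.80.

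Of 18 astrocyte genes 8 were lower and 1 higher in both 3 D pools without overlap, with a median log2 fold change of -0.37, no call by DESeq2 or edgeR, and 2 at an unadjusted edgeR p under 0.05. Background for the lower direction was 17.2% of all genes without overlap. Gja1, the gap junction protein connexin 43, stood at 2742 and 2404 CPM in naïve and 989 and 1904 CPM at 3 D, and Slc1a3, the glutamate transporter GLAST, at 5045 and 4791 CPM in naïve and 2733 and 4101 CPM at 3 D. Aqp4, the water channel, had 350.3 and 305 CPM against 304 and 198 CPM. All 3 were below naïve in both pools and none was called. Gfap had a log2 fold change of -0.14 ± 0.25 and Vim, vimentin, of 0.25 ± 0.30, with their pools overlapping.

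Of 13 PAN-reactive genes, a set known to be induced in reactive astrocytes of many injuries, DESeq2 called 2 higher, Timp1 and Serpina3n (0.513% of all genes). Without overlap, 4 were higher and 1 lower (17.0% and 17.2% of all genes), and the median log2 fold change was 0.25. Timp1, an inhibitor of metalloproteinases, stood at 29 and 27 CPM in naïve and 153 and 107 CPM at 3 D, a log2 fold change of 2.21 ± 0.28 (adjusted p = 7.83e-08, DESeq2; 0.248, edgeR). It was at 79.9 and 83.3 CPM at 2 W, 29.1 and 37.6 CPM at 6 W and 279.5 and 302 CPM at 3 D of crush. Serpina3n, a secreted protease inhibitor, stood at 377 and 526 CPM in naïve, 2439 and 1309 CPM at 3 D and 376 and 657 CPM at 2 W, with a log2 fold change at 3 D of 2.12 ± 0.43 (adjusted p = 7.52e-04, DESeq2). At 2 W the pools of Serpina3n overlapped naïve, while both 2 W pools of Timp1 stood above naïve. Lcn2, lipocalin 2 of the same set, overlapped, at 2.88 and 26.7 CPM in naïve and 15.2 and 22.3 CPM at 3 D.

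Of 12 A1 and 12 A2 genes none was called by DESeq2 or edgeR, with 2 A1 genes and 0 A2 genes at an unadjusted edgeR p under 0.05. Stat3, the factor of gp130 signaling, stood at 276 and 311 CPM in naïve and 256 and 349 CPM at 3 D. Its target Socs3 had 23.5 and 48.4 CPM against 48.4 and 78.4 CPM (log2 fold change 0.84 ± 0.44; adjusted p = 0.85, DESeq2), each sex above its own naïve pool. Fosl2, an AP-1 subunit, was the 1 call of 18 immediate early genes, where DESeq2 called 0.513% of all genes higher. It stood at 8.3 and 19.1 CPM in naïve and 22.1 and 56 CPM at 3 D, with male pools above female pools in both groups (log2 fold change 1.49 ± 0.25).

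Some matrix and growth factor genes differed between the pools more than between the groups. Tnc, tenascin C, stood at 41.6 and 56 CPM in naïve and 9.79 and 98.8 CPM at 3 D, so that the female pool was far below naïve and the male pool above. Thbs1, thrombospondin 1, had 11.7 and 24.3 CPM against 11.5 and 112 CPM, and Fn1, fibronectin, 749 and 552 CPM against 471 and 1614 CPM. Fgf2, a growth factor with an antisense neighbor, was listed at 75.3 and 92.9 CPM in naïve and 2.08 and 126 CPM at 3 D, but at 11.2 and 13.1 FPKM in naïve and 2.59 and 18.9 FPKM at 3 D, which is a smaller gap between the pools. In all 4 genes the high 3 D pool was the male one. None of these was called, and of 23 collagens, 28 integrins and laminins, 21 matricellular genes and 20 TGF-beta genes DESeq2 and edgeR called none, with 1, 2, 1 and 2 at an unadjusted edgeR p under 0.05.

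**Figure D5:**
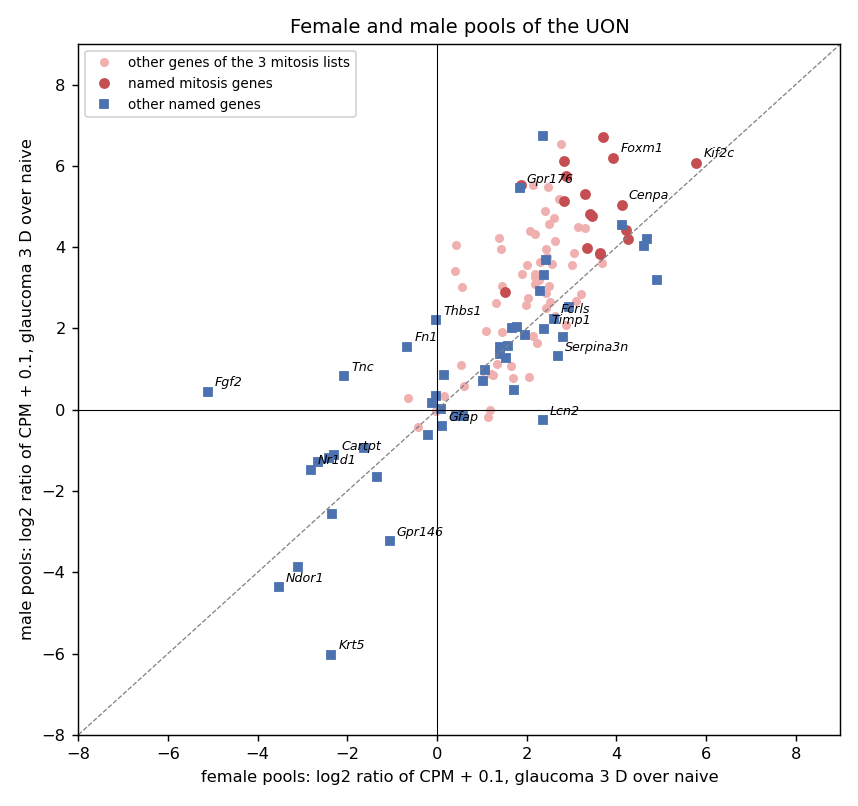
log2 ratio of 3 D glaucoma over naïve (CPM + 0.1) in the female pools (x axis) against that in the male pools (y axis), one point per gene, with mitosis genes marked and single genes named. Kif2c and Cenpa lie high on both axes, while Tnc, Thbs1 and Fgf2 lie higher on the male axis than on the female one.

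Genes of myelin and of oligodendrocyte precursors were high in 1 pool. The summed level of 17 oligodendrocyte genes was 31621 and 26089 CPM in naïve and 50769 and 23479 CPM at 3 D, and that of 11 precursor genes 576 and 415 CPM in naïve and 1154 and 444 CPM at 3 D. The 3 D female pool was the high one in both, and the part of these cells in other differences between the 3 D pools was not tested. Mbp, myelin basic protein, stood at 19104 and 14325 CPM in naïve and 25751 and 12858 CPM at 3 D, and Mog, on the outer face of myelin, at 113 and 87.2 CPM in naïve and 317 and 59.8 CPM at 3 D. Against 2 W, DESeq2 called 8 of the 17 myelin genes and 4 of the 11 precursor genes higher at 3 D (0.836% of all genes), a comparison that holds this pool. At 2 W against naïve the medians of the 2 lists were -0.93 and -0.84 (log2). The mitosis sums were 1437 and 1438 CPM in the female and male 3 D pools, and they include Stmn1, which was high in the 3 D female pool alone.

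Genes called lower were fewer, 25 in all, of which 3 were in any list. Cartpt, a neuropeptide precursor, was abundant, at 5545 and 3973 CPM in naïve and 1134 and 1822 CPM at 3 D, a log2 fold change of -1.66 ± 0.45 (adjusted p = 0.0343, DESeq2; 1.0, edgeR). It stood at 1459.7 and 1128 CPM at 3 D of crush, 4714 and 2214 CPM at 2 W and 4404 and 6165 CPM at 6 W of glaucoma. Both 3 D injuries lay below naïve, and the 6 W pools within or above it. Lingo1, a Nogo receptor partner of neurons and oligodendrocytes, had 54.8 and 67.9 CPM in naïve and 21.6 and 21.4 CPM at 3 D (log2 fold change -1.50 ± 0.28; adjusted p = 0.0028, DESeq2). Ecel1, an endopeptidase of injured neurons, had 55.6 and 60.0 CPM against 8.72 and 24.6 CPM, and Tesc, a calcium-binding protein, 38.5 and 36.2 CPM against 12.5 and 18.9 CPM.

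Gpr146, a receptor without a settled ligand, was at 123 and 122 CPM in naïve and 59.2 and 12.8 CPM at 3 D, but at 25.8 and 24.3 FPKM in naïve and 12.7 and 12.7 FPKM at 3 D, so its counts and its per-length level differ in the male pool. Ndor1, an oxidoreductase, was called for 1 gene entry that overlaps 2 others of that name on the same strand, so reads may be split between them, and stood at 6.08 and 4.0 CPM in naïve and 0.436 and 0.0987 CPM at 3 D, and the noncoding RNA Wincr1 at 2.88 and 2.61 CPM in naïve and 0.485 and 0.355 CPM at 3 D. Upk3bl, a uroplakin-like gene, was at 3.23 and 15 CPM in naïve and 0.291 and 0.928 CPM at 3 D. Upk3bl and Wincr1 were called in none of the fits without 1 library. Krt5, a keratin of surface epithelium, was called lower, at 0.412 and 11.6 CPM in naïve and 0 and 0.079 CPM at 3 D. The naïve male pool was the high one, and Krt15 too stood there at 82.2 CPM against 1.4 CPM in the female pool.

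Of 18 circadian clock genes, a list written after 2 of them had been seen, Nr1d1 and Ciart were called lower and none higher (0.122% and 0.513% of all genes). As called genes prompted the list, this count is no result about clock genes as a set. Without overlap, 3 members were higher and 6 lower (17.0% and 17.2% of all genes), and the median log2 fold change was -0.01. Nr1d1, the repressor REV-ERBα, stood at 377 and 518 CPM in naïve and 53.4 and 186 CPM at 3 D, a log2 fold change of -2.11 ± 0.37 (adjusted p = 3.88e-05, DESeq2). Ciart, a repressor of the core clock, had 92.9 and 86.9 CPM against 17.3 and 38.3 CPM, a log2 fold change of -1.74 ± 0.39. Dbp, a clock output factor, stood at 446 and 501 CPM against 188 and 222 CPM and was not called (adjusted p = 0.114, DESeq2). The 3 genes were also below both naïve pools in both pools at 3 D of crush, with Nr1d1 at 108 and 149 CPM, Ciart at 24.4 and 31.9 CPM and Dbp at 224 and 259 CPM, and both injuries are set against the same naïve pools. Arntl, the clock activator BMAL1, stood at 8.38 and 6.96 CPM in naïve and 10.4 and 9.89 CPM at 3 D, and the clock repressor Per1 at 40.7 and 43.8 CPM in naïve and 54 and 49.6 CPM at 3 D. An exon of Nr1d1 overlaps the gene Thra on the other strand.

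Several further called genes lay outside the lists. Pimreg, a regulator of the metaphase to anaphase step, stood at 0.494 and 1.3 CPM in naïve and 15.3 and 25.7 CPM at 3 D, and Arhgef39, an exchange factor for small GTPases, at 0.0618 and 0.0217 CPM in naïve and 2.71 and 2.73 CPM at 3 D. The naïve level of Arhgef39 rests on 3 and 1 counts, and it was called in none of the fits without 1 library. At 2 W Pimreg stood at 0.351 and 0 CPM and Arhgef39 at 0.198 and 0.12 CPM, and at 3 D of crush Pimreg at 54.7 and 29.3 CPM and Arhgef39 at 7.55 and 3.8 CPM. Gpr176, an orphan receptor, had 0.144 and 0.0435 CPM against 0.775 and 6.2 CPM, higher in the male pool. Named after their values had been seen, Neat1, the nuclear RNA of paraspeckles, stood at 21.3 and 13.8 CPM in naïve and 192 and 128 CPM at 3 D (log2 fold change 3.19 ± 0.38; adjusted p = 2.84e-11, DESeq2; 0.232, edgeR), and Vgf, a neuronal secreted peptide precursor, at 0.33 and 0.413 CPM in naïve and 3.83 and 8.04 CPM at 3 D.

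The lists not yet described held no called gene, except that Ckap2 was also the 1 call of 21 p53 targets (median log2 fold change 0.20) and Timp1 that of 19 metalloproteinases and inhibitors (0.32). Among the other cells of the nerve and its borders, the median was 0.12 for endothelium, 0.02 for pericytes and smooth muscle, 0.24 for fibroblasts, 0.51 for Schwann cells, 0.09 for lymphocytes, 0.86 for red blood cells, 0.11 for melanocytes and pigment epithelium, 0.13 for photoreceptors, -0.18 for skeletal muscle, and -0.08 for other retinal neurons. Among pathways it was 0.20 for gp130 and STAT3 genes, -0.05 for YAP and TAZ targets, 0.07 for IL-1, TNF and Toll-like receptors, -0.21 for interferon-stimulated genes and 0.22 for antigen presentation. It was 0.30 for glucocorticoid-responsive genes, 0.11 for NRF2 targets, -0.01 for the integrated stress response, -0.17 for hypoxia and glycolysis, 0.01 for cholesterol synthesis and -0.41 for endothelin and FGF signaling. Housekeeping genes had a median of 0.20.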

How the data were processed

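Bulk RNA-seq of 36 libraries was analysed. By the study's methods, paired reads of 150 bases went through HISAT2 2.2.1 (genome GRCm38) and then StringTie 1.3.0, with Gencode annotation. The authors made the deposited gene counts (estimated from transcript coverage, not normalized, 55487 genes) with StringTie's count script, and the deposited FPKM with StringTie, where a few values just below 0 were set to 0. Strand is not given in the sources used here, and 20 of 66 named genes have an exon that overlaps another gene, 16 on the opposite strand, so their reads cannot be told apart. Total counts were 16.2 to 58.5 M in UON.

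The counts of the naïve and 3 glaucoma UON groups (8 libraries) were fitted with group and sex in edgeR 4.0.16 (R 4.3.3): TMM, filterByExpr (minimum count 10, minimum total 15), quasi-likelihood test, Benjamini-Hochberg adjustment, limits of 0.05 and a log2 fold change of 1. Crush was compared in all 12 UON libraries and MON by an interaction in 16 libraries. DESeq2 1.42.0, the tool of the study, and limma 3.58.1 (voom) were alternatives. CPM use TMM factors. The fit was tested on simulated data. p-values measure only the spread that the sex term leaves between the 2 pools of each group. That spread was estimated over all groups of a fit, with 3 residual degrees of freedom in the first.

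The comparison, the lists and the names were chosen with earlier results of these data known. Named were up to 4 called members of each of 51 lists by size of change, the 10 called genes with the largest change in each direction with an official symbol, all counts above 0 and pools without overlap, and a set of always named genes. As edgeR called none, the rule was applied to DESeq2 calls, a choice made after the values were seen. Other named genes illustrate a list. Of the genes the rule named, 2 are not reported here.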

Additional observations from a re-analysis of the deposited data

Results flagged for a closer look

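The 3 D glaucoma response differed between UON and MON by the interaction test of DESeq2 for Cartpt, and not by that of edgeR. For Cartpt the response in UON minus that in MON was -2.4 on the log2 scale in edgeR, with an SE of 0.585 (adjusted p = 0.0274, DESeq2; 0.877, edgeR). It stood at 5545 and 3973 CPM in naïve and 1134 and 1822 CPM at 3 D in UON, and at 8.62 and 11.2 CPM in naïve and 10.8 and 23.6 CPM at 3 D in MON, where it was near absent. Of the other genes named by the rule and reported here none passed either interaction test. Genes named only to illustrate a list were not part of this check. DESeq2 called a lower response in UON than in MON for 4 of 16 genes of monocytes and border macrophages. It did so for 3 of 13 antigen presentation genes, where it called 0.170% of all genes lower. Neither list, which may share members, had a gene called higher. Groups of 2 pools are too small for a check of single outlying samples.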

How the results depend on the processing

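edgeR's quasi-likelihood test called no gene higher or lower at 3 D against naïve with DESeq2's size factors, without the sex term, on the 4 libraries alone, in a robust fit, with a minimum count of 40 or by limma voom. Without the filter on low counts it called 23 higher and 4 lower, over all 12 UON libraries 1 and 0, and by the likelihood ratio test 66 and 15. DESeq2 called 105 higher and 25 lower, on the 4 libraries alone 116 and 30, over all 12 UON libraries 77 and 15, without the sex term 113 and 25, and on the genes of edgeR's filter 100 and 25. Of the 130 calls, 94, 78, 111 and 116 were shared with these 4. DESeq2 called 171 higher and 43 lower against 2 W, 109 and 18 against 6 W, 8 and 4 against crush, and 36 and 35 for UON against MON. Without the filter edgeR called 21 and 3, 24 and 2, 1 and 3, and 3 and 5 in these, over all 12 UON libraries 1 higher against 6 W, and without the sex term 2 and 2 for UON against MON. The cause of these differences was not tested.

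Without 1 library at a time, DESeq2 called 42 to 329 genes higher and 6 to 382 lower against naïve, 123 to 350 and 29 to 259 against 2 W, 131 to 335 and 12 to 412 against 6 W, 4 to 22 and 4 to 31 against crush, and 8 to 545 and 8 to 428 for UON against MON. edgeR called 0 to 3 and 0 to 3, 0 to 39 and 0 to 14, 0 to 6 and 0 to 6, 0 to 1 and 0 to 5, and 0 to 3 and 0 to 9 in these. The largest counts against naïve came without the 3 D male pool. Mitosis genes called higher numbered 18 to 33 in DESeq2 and 0 to 1 in edgeR, and those at an unadjusted p under 0.05 numbered 46 to 56 and 40 to 53. By list, DESeq2 called 7 to 13 cyclin and kinase, 4 to 7 kinetochore, 7 to 13 spindle, 1 to 3 DNA replication, 1 to 3 homeostatic microglia and 0 to 7 phagocyte activation genes, and edgeR 0 to 1 cyclin and kinase genes and 0 of the others.

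Of 65 named genes with a value, 54 kept their direction in every alternative. Tnc turned to -0.12 over all 12 UON libraries, -0.60 on the 4 libraries, -0.63 and -0.13 for the same in DESeq2, and -0.26 by voom. Without 1 library, log2 fold changes crossed 0 for Tnc (-3.08 to 1.43), Fgf2 (-6.19 to 1.04), Fn1 (-1.42 to 2.06), Thbs1 (-0.54 to 2.60), Mbp (-0.77 to 0.89), P2ry12 (-0.35 to 0.80), Vim (-0.18 to 0.64), Lcn2 (-0.064 to 2.24), Gfap (-0.37 to 0.084), Stat3 (-0.24 to 0.30) and Ccnd1 (-0.021 to 0.15).

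Between groups no paired analysis was possible, since each group held different mice, and sex, which the groups share, is a term of the fit. Between UON and MON a pairing did exist. By the study's methods both tissues came from each mouse, and RNA was pooled by sex. UON and MON pools of the same group and sex therefore came from the same mice. The interaction test of UON against MON did not use this pairing, and a paired test was not run. The shallow 3 D female pool (19.5 M counts) limits genes of low level.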
